A study of Mus musculus with 11 samples.

Results

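A pool of barcoded mouse pancreatic ductal adenocarcinoma (PDAC) cell lines grew as colonies in the lungs of mice that had received vehicle only, and the lines of the pool are compared here with one another inside each of these lungs. The 6 samples titled vehicle_1 to vehicle_6, of 11 samples in the series, were used. Per the labels, the pool had been given into the vein of syngeneic 129/Bl6 F1 mice after pre-treatment with vehicle, and the lungs were analysed 3 weeks later. The other samples of the series came from mice given the nerve toxin 6-OHDA and were left out. The labels do not say that each sample was a separate mouse, so p-values measure the spread between these 6 lungs. Lines of the pool shared the host, the injection and the library within a lung. Vein injection bypasses escape from a primary tumour. The make-up of the injected pool was not analysed here, so a number of colonies is not a rate per injected cell.

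A tumour cell that reaches the lung through the blood first lodges in a capillary, and must leave it and survive before it divides. The number of colonies a line leaves and the size those colonies reach are therefore separate steps of metastasis. A heritable DNA barcode keeps them apart: distinct barcodes count colonies, and reads per barcode follow the relative number of descendants. Cells that divided between tagging and injection share a barcode, so several cells with the same barcode can seed a lung and count as 1 colony here.

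Each listing in the tables was a barcode of 20 bases with its read count. By the layout of the amplified cassette, its first 4 bases were taken to mark the line. No name of a line or guide RNA accompanied them. A barcode with 10 or more reads was counted as a colony. This gave 29269 colonies from 24651 distinct barcodes and 72 identifiers. The 23 lines with 20 or more colonies in at least 3 of the 6 lungs were compared. They held 96.1 to 98.5% of the colonies and 98.6 to 99.5% of the reads of a lung. Because colony number chose the lines, nothing is said of how they differ in number from the other identifiers. ATCG lay just inside the rule, with 20, 74 and 70 colonies in vehicle lungs 2, 3 and 4 and 1 to 11 in the others. ACAC (55 colonies in lung 3), CAAC (30), CACT (51), CCAA (37), GAAG (43), GCTA (20) and TGAC (49) lay just outside, each with 20 or more colonies in lungs 3 and 4 only.

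The libraries held 6436469 to 15665492 reads. Vehicle lungs 3 and 4 were sequenced deepest and held 9099 and 9335 colonies, against 1965 to 3604 in the other 4. After all libraries were thinned to 6436469 reads, they still held 7982 and 8305 colonies, against 1965 to 3373. Comparisons between lines were made within a lung, where depth is shared.

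The largest colonies of 7 lines show what was counted and how far lines differed. The identifier of the line is in capitals and the colony's own bases are in lower case.
Line AACC: AACCgatgtccgacagctgg
Line CCTT: CCTTagcgtgggatggatgg
Line GTTG: GTTGtgggattgctggatag
Line CTTC: CTTCatcgggagagggttgg
Line GGTT: GGTTcatgcgtgggagtgtg
Line ATCG: ATCGgcggtctgttcgaggg
Line GATC: GATCcaaggtggggaggctg
The AACC barcode had 230522 reads in vehicle lung 2 and at most 1 read in any other lung. The ATCG barcode had 362023 reads in vehicle lung 2, more than any other colony of the compared lines, and at most 4 in any other lung. The GTTG barcode was a colony in 5 lungs, with 115643 reads in vehicle lung 1, 25405 in lung 6 and 34 in lung 4. The GGTT barcode was likewise a colony in 5 lungs, from 33 to 20526 reads. The largest GATC barcode of any lung had 28 reads.

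For the plots the lines were numbered by their mean share of colonies. In this order they are AACC (line 1), CCTT (2), GTTG (3), AGGT (4), ACGA (5), CTGT (6), GGAA (7), TTCC (8), GATC (9), AGTC (10), AAGG (11), GTGA (12), AGAG (13), GGTT (14), CATG (15), CTTC (16), CGTA (17), ACTG (18), ACCT (19), ATGC (20), GTAC (21), CGAT (22) and ATCG (23).

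The first comparison asked whether lines differed in how many colonies they left in the same lung. AACC and CCTT left the most. AACC had 541, 751, 1517, 1446, 494 and 773 colonies in vehicle lungs 1 to 6 and ranked first in each. CCTT had 437, 677, 1089, 1171, 449 and 629 and held rank 2 in 5 lungs and rank 3 in lung 4. AACC was higher than CCTT in 6 of 6 lungs but by little, with a log2 ratio of 0.28 (SE 0.14) and paired differences between 0.14 and 0.48. This did not pass the threshold (edgeR adjusted p = 0.118). It passed with libraries thinned to equal depth (edgeR adjusted p = 0.0471) and among the lines with 20 colonies in every lung (edgeR adjusted p = 0.0403). At a minimum of 30 or 100 reads it also passed (edgeR adjusted p = 0.0480 and 0.00999). A higher minimum removes more of the line with smaller colonies. As means over lungs, 29.8% of CCTT colonies and 12.2% of AACC colonies had fewer than 100 reads. Thinning likewise removes small colonies, so these settings do not separate number from size. An exact sign permutation test gave an adjusted p of 0.0482, the value of every pair with the same line ahead in all 6 lungs. That test therefore adds nothing to the count of 6 of 6 lungs.

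GTTG came next, with 126, 240, 999, 1250, 77 and 237 colonies. Its numbers in lungs 3 and 4 were far above those in the other 4, and in lung 4 it passed CCTT. Averaged over lungs CCTT had 2.31-fold more colonies than GTTG (log2 ratio 1.20, SE 0.36, edgeR adjusted p = 0.0177), and more in 5 of 6 lungs. That call was lost without vehicle lung 2 (edgeR adjusted p = 0.0560) or lung 6 (edgeR adjusted p = 0.0530), and without the block for lung (edgeR adjusted p = 0.480). AGGT followed with 160, 297, 505, 386, 113 and 220 colonies, and ACGA with 55, 143, 647, 665, 74 and 101. GTTG and AGGT crossed, each above the other in 3 lungs. The 5 lines together held 58.2 ± 4.65% of the colonies of a lung (SD, n = 6) and 83.3 ± 2.34% of its reads.

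Of 253 pairs of lines, 167 differed in colony number at an adjusted p under 0.05, which is 66% of all pairs tested (edgeR quasi-likelihood test, paired by lung). The pairs share lines and are not independent of one another. The same line was ahead in every lung in 164 of all 253 pairs, and in 157 of the 167 called. A test paired by lung favours such pairs, so the second count is not separate support. The median difference among the pairs called was 3.27-fold. AACC and CCTT each exceeded 21 of the 22 other lines, GTTG 18 and AGGT 17. ATCG trailed 21 lines, and ATGC, CGAT and GTAC trailed 14 each. One of the lines ahead of ATCG was GATC (edgeR adjusted p = 0.0463), and that call turned at a minimum of 30 or 100 reads, where GATC had no colony. In the middle, ACGA, CTGT and TTCC each exceeded 13 lines, GGAA 12 and AGTC 8. Lines were also put in order of mean log2 colony number over lungs, which differs in places from the order of line numbers. Of the 22 pairs of neighbours in it, 1 was called, CCTT over GTTG. Without the pairing by lung only 63 pairs were called.

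**Figure D1:**
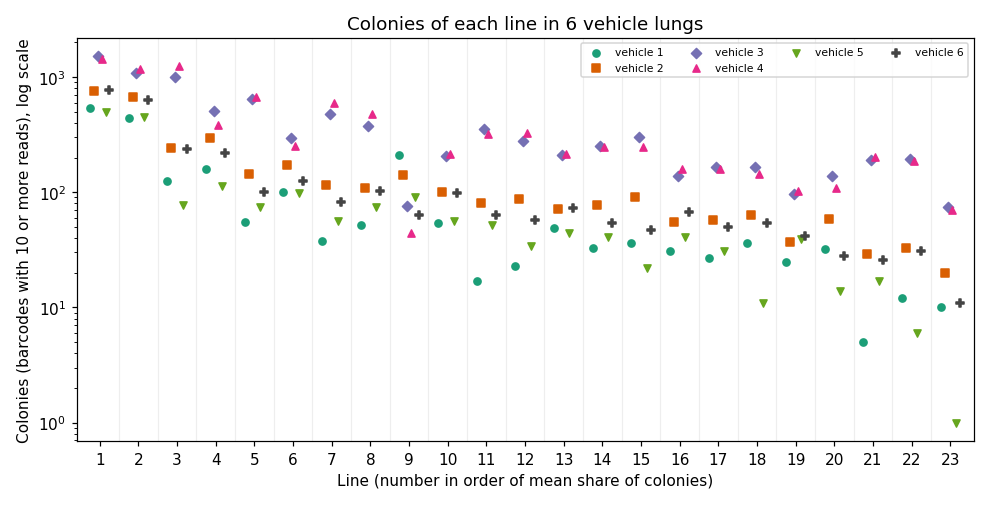
Colonies of the 23 compared lines (x axis, numbered by mean share of colonies) in each of the 6 vehicle lungs (symbols), on a log scale. Lines 1 and 2 are highest in nearly every lung, lungs 3 and 4 are high for all lines but line 9 (GATC), and line 9 runs from 44 to 211 in another order of lungs.

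The range of colony number over lungs was narrow for some lines and wide for others. The lung with the most AACC colonies had 3.07-fold more than the lung with the fewest, and for CCTT this ratio was 2.68 and for CTGT 2.96. It was 16.2 for GTTG, 15.7 for GGAA, 20.9 for AAGG, 32.7 for CGAT and 40.6 for GTAC. It was widest for ATCG, with 1 to 74 colonies, while all colonies of a lung numbered 1965 to 9335. As a share of the colonies of a lung, AACC had 16.7 and 15.5% in lungs 3 and 4 and 20.8 to 25.2% in the other 4, whereas GTTG had 11 and 13.4% there and 3.92 to 7.60% elsewhere. ACGA had 7.11 and 7.12% in lungs 3 and 4 and 2.56 to 3.97% elsewhere. For all 3 lines lungs 3 and 4 did not overlap the others. Such a split was seen in most of the compared lines and was not particular to these 3. Lungs 3 and 4 were the higher ones for some lines and the lower ones for others. AGAG kept nearly the same share everywhere, from 2.0 to 2.34%. Lungs 3 and 4 were also the deepest libraries, and after thinning to equal depth they still held the most colonies.

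The second comparison asked whether the colonies of different lines differed in size. Size is given as RPM, the reads of a colony per 1000000 barcode reads of its library. The median AACC colony measured 334, 215, 92.6, 82.2, 343 and 242 RPM in vehicle lungs 1 to 6. The median CCTT colony measured 45.8, 29.9, 13.5, 11.9, 42.7 and 41.7 RPM. Both were smallest in lungs 3 and 4, where more colonies shared the reads, and AACC was several-fold larger in every lung. Their colony numbers were close, whereas their median sizes differed 6.98-fold (log2 ratio 2.80, SE 0.22, 95% interval 2.32 to 3.28, limma adjusted p = 1.41e-07). The paired differences ran only from 2.53 to 3.00 on the log2 scale. In a lung, at most 14.6% of CCTT colonies exceeded the AACC median.

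Some lines with few colonies had large ones. CTTC had 31, 55, 137, 159, 41 and 68 colonies with a median of 275, 101, 55.4, 59.9, 224 and 87.9 RPM, and held rank 2 to 4 in size in every lung. AGTC had 54, 101, 206, 215, 56 and 99 colonies with a median of 234, 114, 61.6, 42.1, 147 and 146 RPM, also rank 2 to 4 in every lung. AACC was larger than CTTC by a log2 of 0.77 (SE 0.25, limma adjusted p = 0.0116) in 6 of 6 lungs, a call lost at a minimum of 3 reads (limma adjusted p = 0.0520) and in a fit not paired by lung (limma adjusted p = 0.0520). CTTC and AGTC were not told apart, each being ahead in 3 lungs, with paired differences from -0.73 to 0.61.

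GTTG held ranks from 1 to 8 in size. Its median was 92.0, 67.3, 79.0, 121, 119 and 71.4 RPM. Lungs 3 and 4 were not the lowest for GTTG, unlike for AACC and CCTT. Against all colonies of the other compared lines in the same lung, the GTTG median stood at a log2 of 2.59 and 3.41 in lungs 3 and 4 and at 0.60 to 1.22 in the other 4, with no overlap. In lung 4 it was above AACC, the lone exception to AACC ranking first.

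At the lower end, ATGC had 32, 59, 138, 108, 14 and 28 colonies with a median of 8.13, 6.29, 3.10, 3.28, 8.0 and 6.32 RPM. AAGG had 17, 80, 356, 318, 52 and 64 colonies with a median of 13.4, 5.73, 3.45, 3.06, 14.2 and 8.98 RPM. AAGG held rank 20 by number in lung 1 and rank 8 in lung 3, and was among the smaller lines in size in all 6 lungs, at ranks 15 to 22. Colonies above the AACC median made up at most 1.92% of AAGG colonies and 0.926% of ATGC colonies in any lung.

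**Figure D2:**
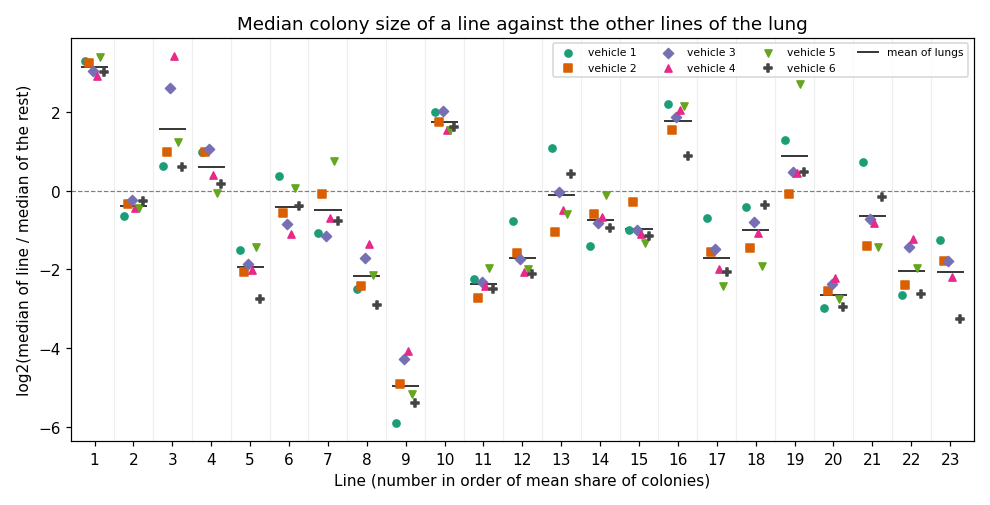
Median colony size of each line relative to the median of all colonies of the other compared lines in the same lung (log2, y axis), by line number (x axis). Symbols are the 6 vehicle lungs, bars the mean over lungs and the dashed line equality. Line 1 (AACC), line 10 (AGTC) and line 16 (CTTC) lie above it in all 6 lungs, and line 9 (GATC) lies lowest. Line 3 (GTTG), like lines 6, 8, 9, 20 and 22, is split between lungs 3 and 4 and the rest.

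Set against the rest of its lung, the median size of 19 of the 23 lines differed (limma adjusted p under 0.05), which is 82.6% of the lines tested. Of these, 6 lines were larger (26.1%) and 13 smaller (56.5%). The larger lines were AACC (mean log2 difference 3.15, SE 0.14), CTTC (1.78, SE 0.20), AGTC (1.74, SE 0.15), GTTG (1.57, SE 0.37), ACCT (0.88, SE 0.33) and AGGT (0.59, SE 0.20). The first 4 were larger in 6 of 6 lungs, and ACCT and AGGT in 5. The call for ACCT was lost without vehicle lung 1 (limma adjusted p = 0.0710), and that for AGGT without lung 2 (limma adjusted p = 0.0629) or lung 3 (limma adjusted p = 0.0702). The AGGT call was also lost after thinning (limma adjusted p = 0.0739), without GATC (limma adjusted p = 0.0758) and at a minimum of 30 reads (limma adjusted p = 0.599). The 90th percentile of AGGT colonies lay below that of the rest (log2 difference -0.57, limma adjusted p = 0.0275), so its direction depended on which point of the size distribution was taken. For CTTC and AGTC the 90th percentile differences were 0.07 and 0.17 and did not pass the threshold (limma adjusted p = 0.755 and 0.292).

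The smaller lines were CCTT (-0.40), GGTT (-0.76), CATG (-0.98), ACTG (-1.0), CGTA (-1.70), GTGA (-1.71), ACGA (-1.94), CGAT (-2.04), ATCG (-2.05), TTCC (-2.17), AAGG (-2.36), ATGC (-2.64) and GATC (-4.95), all as mean log2 differences. Each of the 13 was smaller in every lung in which it was measured. The call for CCTT, which lay nearest to 0, was lost without lung 3 (limma adjusted p = 0.0503) or lung 4 (limma adjusted p = 0.0651). With barcodes of 3 or more reads counted as colonies, its difference turned to 0.78 (limma adjusted p = 0.0903). AGAG (-0.11), CTGT (-0.41), GGAA (-0.50) and GTAC (-0.64) did not pass the threshold. By the mean in place of the median, 1 line was larger than the rest, AACC (4.35% of the lines tested; log2 difference 2.40, SE 0.15), and 16 were smaller (69.6%). AGGT was among the smaller, at -0.61 (limma adjusted p = 0.0144) and lower in 6 of 6 lungs, opposite to its call by the median. GTTG, at 0.52 (limma adjusted p = 0.112), passed without lung 2 (limma adjusted p = 0.0208). For every other line the rest includes the AACC colonies, which held 41.3 to 67.6% of the reads of a lung.

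Pair by pair, 200 of 253 pairs of lines differed in median size, 79.1% of all pairs tested, and 187 in mean size, 73.9% (limma, paired by lung). The same line was larger in every lung where both were measured in 183 of all 253 pairs, and in 178 of the 200 called by median size. AACC exceeded all 22 others and GATC trailed all 22. CTTC and AGTC each exceeded 19, and ATGC trailed 18. Of 22 pairs of neighbours in the order of mean log2 median size, 3 were called. These were AACC over CTTC, ACTG over GTGA (log2 0.67, limma adjusted p = 0.0385) and ATGC over GATC (log2 2.18, limma adjusted p = 1.91e-06).

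GATC stood apart from all other lines. It had 211, 141, 76, 44, 90 and 63 colonies, so it held rank 3 by number in lung 1 and rank 23 in lung 4, the widest span of any line. Its median colony held 11 to 13 reads in every lung, close to the minimum of 10, and none reached 30 reads. Counted without a minimum, GATC barcodes numbered 897, 629, 224, 236, 564 and 291, with a median of 5 to 7 reads. After thinning to equal depth the colonies numbered 115, 58, 9, 3, 90 and 18. Lungs 1, 2 and 5 were high and lungs 3, 4 and 6 low by each count. For each of the 22 other lines, lungs 3 and 4 had the most colonies. Per the labels a benchmark cell line was added to the tissue before DNA extraction. The tables do not name it, and whether GATC belongs to it or to the injected pool was not tested.

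The next comparison was of the share of reads, the product of colony number and mean size. AACC held 64.6, 63.3, 51.5, 41.3, 67.6 and 63.1% of the reads of vehicle lungs 1 to 6. GTTG held 8.74, 5.36, 18.8, 35.3, 3.93 and 9.02%. AACC was lowest in lungs 3 and 4, the lungs where GTTG was highest. Shares of a lung add up to a fixed whole, so a larger share of 1 line leaves less for the others. CCTT held 7.77, 6.24, 4.59, 3.85, 5.76 and 7.85%, with less spread between lungs than GTTG. AACC had 5.87-fold more reads than GTTG (log2 ratio 2.55, SE 0.54, edgeR adjusted p = 0.0021) and 9.93-fold more than CCTT (log2 ratio 3.31, SE 0.28, edgeR adjusted p = 6.64e-06), in 6 of 6 lungs each. GTTG and CCTT were not told apart by reads (edgeR adjusted p = 0.240), with paired log2 differences of GTTG over CCTT from -0.55 to 3.20.

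In all, 188 of 253 pairs differed in reads, 74.3% of those tested (edgeR, paired by lung). The same line was ahead in every lung in 174 of all 253 pairs, and in 169 of the 188 called. AACC exceeded all 22 others, and CCTT and GTTG 19 each. Of the 22 pairs of neighbours in the order of mean log2 reads, AACC over GTTG and ATGC over GATC were called. AGTC held 2.71, 3.15, 3.35, 2.55, 3.04 and 4.02% and held rank 5 or 6 in every lung. AGGT held 4.79, 7.01, 5.57, 2.70, 2.35 and 4.75%, between ranks 2 and 7.

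The ratio of a line's share of reads to its share of colonies gives its mean colony size relative to the reads per colony of the lung. Several cells with the same barcode can count as 1 colony, so the ratio is not a measure of growth. It averaged above 1 for AACC (2.77 ± 0.238, SD, n = 6), GTTG (1.47 ± 0.658), ATCG (1.39 ± 2.99), AGTC (1.19 ± 0.161) and CTTC (1.14 ± 0.340). For AACC it lay between 2.55 and 3.09 in every lung. For ATCG the median over lungs was 0.237, and the highest value, 7.48, came from lung 2, where a single barcode held 98.0% of the reads of that line. The ratio was 0.341 ± 0.0548 for CCTT, 0.145 ± 0.0370 for ACGA, 0.0705 ± 0.0118 for AAGG and 0.0590 ± 0.0194 for ATGC. GATC had the lowest, between 0.0035 and 0.0087.

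**Figure D3:**
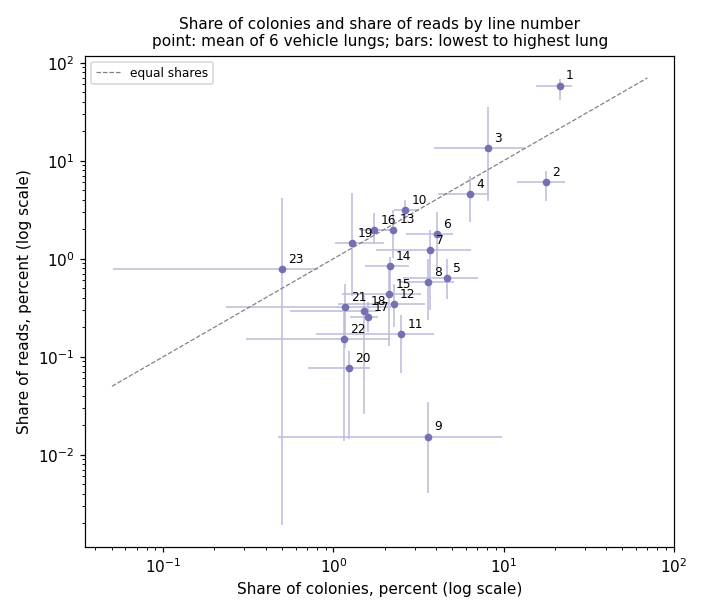
Mean share of the reads of a lung against mean share of its colonies for the 23 lines, both on log scales, with bars from the lowest to the highest of the 6 vehicle lungs and a dashed line where the shares are equal. Lines 1 (AACC) and 2 (CCTT) lie close along the colony axis and apart along the read axis, and line 9 (GATC) lies far below the dashed line.

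Differences in reads between lines were divided into a part from colony number and a part from mean colony size, which add up on the log scale. Number held 37.2 ± 4.99% (SD, n = 6 lungs) of the variance of read shares between lines and mean size 62.8%. In single lungs number held between 29.1 and 43.1%. The division depended on the minimum and on the lines compared. Number held 56.7% with colonies of 100 or more reads only, 50.7% with lines of 5 or more colonies in 3 lungs and 44.4% without GATC. Across the 23 lines, the mean share of colonies and the median size relative to the rest had a Pearson correlation of 0.39 (Spearman 0.36), given as a description of lines that share the same 6 libraries. It was 0.20 without AACC and 0.50 without GATC.

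The last question was how alike the order of lines was from lung to lung. Ranked by colony number, 23 lines gave a mean Spearman correlation of 0.793 ± 0.131 (SD) over the 15 pairs of lungs and a Kendall coefficient of concordance of 0.828. Lungs 3 and 4 were most alike (0.983) and lungs 1 and 4 least (0.530). For median size the mean was 0.892 ± 0.0568 over 22 lines, from 0.773 for lungs 1 and 5 to 0.968 for lungs 3 and 4, with a concordance of 0.910. For reads it was 0.871 ± 0.0741, from 0.693 for lungs 2 and 5 to 0.959 for lungs 3 and 4. Which of size and number had the more alike order depended on the processing, and the difference was not tested. Size was ahead as above, whereas number was ahead at a minimum of 30 reads (0.867 against 0.851) or 100 reads (0.882 against 0.826). Number was also ahead with lines of 5 or more colonies in 3 lungs (0.896 against 0.880) and without lungs 3 and 4 (0.889 against 0.871). ATCG was left out of the size order because it had fewer than 5 colonies in lung 5. Without GATC the mean was 0.861 for number and 0.876 for size.

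**Figure D4:**
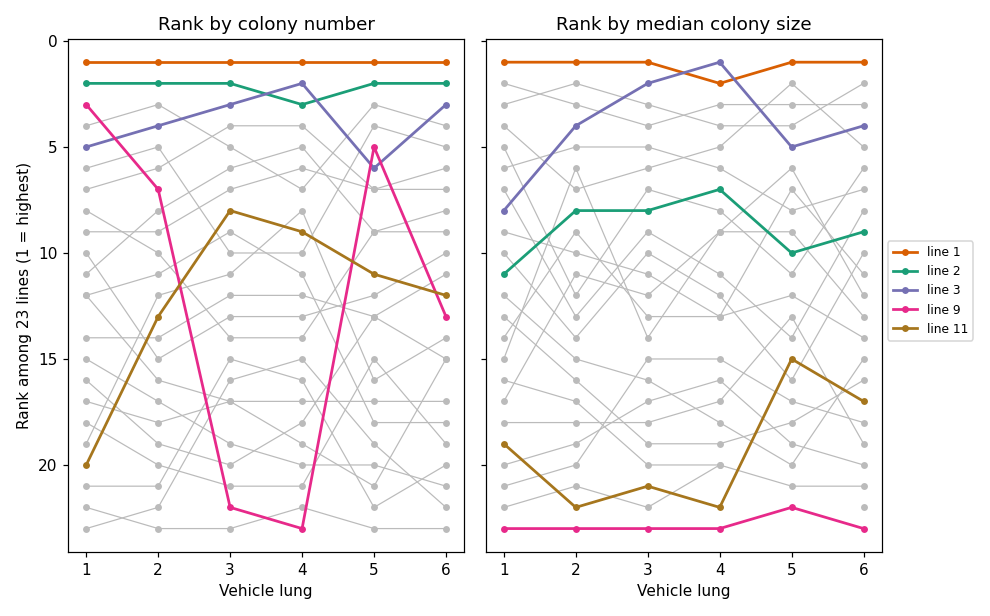
Rank of each of the 23 lines in each vehicle lung (x axis) by colony number and by median colony size, with rank 1 on top. Lungs have no order, and the lines drawn only join values of the same cell line. Line 1 (AACC) is first by number in all 6 lungs. By number, line 9 (GATC) moves between ranks 3 and 23, and line 11 (AAGG) between 8 and 20.

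By number, AACC was the single line with the same rank in all 6 lungs. CCTT, CGTA and ATCG moved by 1 rank, and GTTG and AGGT by 4. GTGA moved by 11, AAGG by 12 and GATC by 20. GTGA ranked 8 in lung 4 and 19 in lung 1, and CTGT ran the other way, at 4 to 6 in lungs 1, 2, 5 and 6 and 10 in lungs 3 and 4. Of the variation in log2 colony number, 51.5% lay between lines, 36.4% between lungs and 12.1% in neither. For log2 median size the shares were 86.2, 6.15 and 7.70%. They were taken on reads per colony not scaled to RPM, so the part between lungs is not that of sizes in RPM.

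Single barcodes moved the read shares of small lines. The largest AACC colony held 1.34 to 4.09% of the AACC reads of a lung, and that of CCTT 1.76 to 8.31%. In AGAG the largest colony held 6.15 to 55.3% of the line's reads, and in ACCT 9.16 to 50.5%. ACCT held 4.68% of the reads of lung 5 and 0.418 to 1.43% of those of the other 5. In lung 5 a single barcode held 50.5% of its reads. ATCG held 4.15% of the reads of lung 2 and 0.0019 to 0.245% elsewhere, through the barcode shown above. The leading barcodes of ACCT and AGAG, each listed in 1 lung only, had 152120 reads in lung 5 and 138735 reads in lung 1.
Line ACCT: ACCTattggtggccaggacg
Line AGAG: AGAGgttgttaggtcgttcg

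The same barcode was often a colony in more than 1 lung. This held for 3620 of 24651 barcodes (14.7%), which made up 8238 of 29269 colonies (28.1%). Of the barcodes, 21031 were a colony in 1 lung, 2846 in 2, 593 in 3, 144 in 4, 31 in 5 and 6 in all 6. Lungs 3 and 4, with the most colonies, shared 1369 barcodes, 15% of the colonies of lung 3 and 14.7% of those of lung 4. Lungs 1 and 5 shared 111, 5.17% of lung 1 and 5.65% of lung 5. How barcodes came to be shared between lungs was not tested.

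This share, as a mean of the 6 lungs, was 62.0 ± 11.7% (SD, n = 6) for GTTG, 57.5 ± 22.9% for ATCG, 53.8 ± 10.1% for GGTT, 43.3 ± 4.70% for AACC and 36.7 ± 5.04% for CCTT. The ATCG mean includes lung 5, where that line had 1 colony. GTAC (5.34 ± 3.55%), ACTG (6.73 ± 5.33%) and GATC (7.27 ± 3.59%) had the lowest. In single lungs GTTG had 71.4, 67.9, 50.4, 44.0, 68.8 and 69.2%, and GGTT 60.6, 51.9, 41.3, 42.7, 63.4 and 63.0%. Both were lowest in lungs 3 and 4. This was not particular to them, as AACC, CCTT and several other lines were also lowest there. Some lines, such as CTGT, were not. CTGT, with more colonies than GGTT in every lung, had 12 to 20.2%, below every GGTT value. These shares were not tested between lines.

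**Figure D5:**
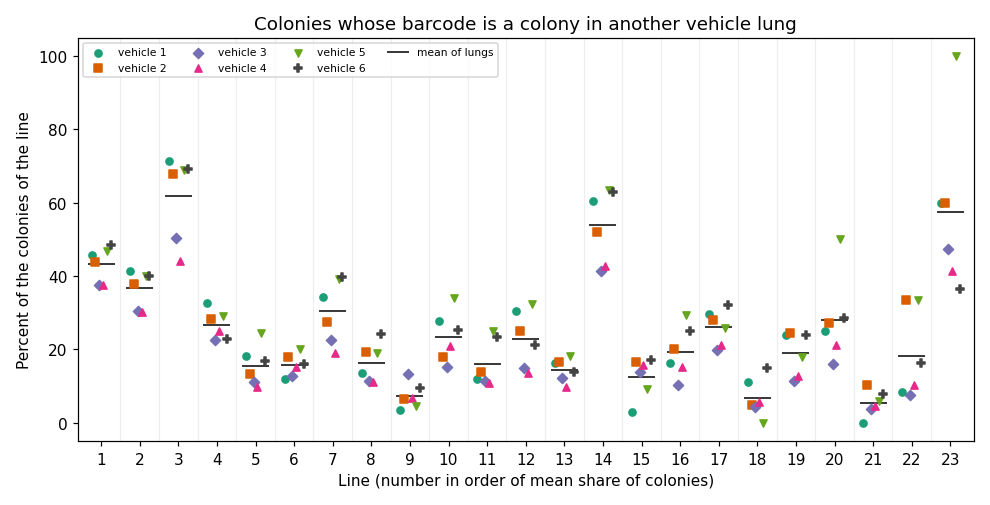
Share of each line's colonies whose barcode was also a colony in another vehicle lung (percent, y axis), by line number (x axis), with a symbol for each of the 6 lungs. Line 3 (GTTG) lies between 44.0 and 71.4% and line 14 (GGTT) between 41.3 and 63.4%, while line 9 (GATC) stays at 13.2% or less.

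Within a line, colonies with a recurring barcode could be set against the others of the same lung. Of 20 lines with enough colonies of both kinds, 3 had larger recurring colonies (15% of the lines tested; limma adjusted p under 0.05). Recurring GTTG colonies were larger by a log2 of 0.93 (SE 0.14, limma adjusted p = 0.00575), those of CTGT by 1.33 (SE 0.28, limma adjusted p = 0.0197) and those of AACC by 0.70 (SE 0.16, limma adjusted p = 0.0230). In each of the 3 lines they were larger in 6 of 6 lungs. No line had smaller ones by this test, and at an unadjusted limma p under 0.05 there were 8 lines, all with larger recurring colonies. These calls depended on single lungs: 0 lines passed without lung 3, 4 or 5, and 1 passed without lung 1.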

How the data were processed

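Barcodes were amplified from 32 µg of genomic DNA per lung in 27 PCR cycles, per the labels' protocols, without molecular identifiers, so reads are not cells. The deposited tables hold read counts per clustered barcode (counts as the authors deposited them) and a cluster score, a deposited score that was not used for any result. Which tool clustered the barcodes is not given in the sources used here. Of 55443 listings, 2 with an N were dropped. A colony was a barcode with 10 or more reads; errors are the spread between these 6 lungs. Colony numbers and summed reads per line were tested with edgeR 4.0.16 (quasi-likelihood, lung as block). The log2 of the median size and the log2 of the mean size per line were tested with limma 3.58.1 on differences within a lung. This was done for lines with 5 or more colonies there and at least 4 lungs. P-values were Benjamini-Hochberg adjusted over all 253 pairs or all lines tested. Lungs were paired by construction, because lines of one pool share each lung. Named lines were those with the most colonies (5), the 3 largest and 3 smallest median sizes, the 3 highest and lowest ratios of shares, the widest rank spans, and GATC; others named singly were chosen after their values were seen. The members and lists were chosen with earlier results of these data known. Alternatives changed the minimum reads, depth, line set, block, test and lungs. The fits were tested on 20 simulated sets of 23 lines. Every simulated line had the same spread between lungs, drawn independently of the other lines, and no minimum of reads was applied. In the data the spread differed between lines, so the rates below describe the simulated sets only. A true 2-fold difference was called in 51.9% of pairs for number, 80.2% for median size and 14.2% for reads. For a 4-fold difference these were 99.3, 100 and 61.4%, and with no difference 3.14, 4.1 and 1.35%. A pair that was not called is therefore not shown to be alike, least of all by reads. R 4.3.3, DESeq2 1.42.0 (an alternative) and Python 3.11.15 were used.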

Additional observations from a re-analysis of the deposited data

Results flagged for a closer look

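Of 71 groups of lung values examined, 7 held a lung far from the others by Dixon's test. Chance alone gives about 1 in 20 groups, or 3.55. Groups held 6 values, except the ATCG median size with 5. In vehicle lung 5, ACCT held 1.98% of the colonies and 4.68% of the reads, both above the other lungs. In the same lung ACTG held 0.560% of the colonies and 0.0263% of the reads, both below the others. ATCG held 4.15% of the reads of lung 2, far above its share elsewhere. AGAG had its lowest share of colonies, 2.0%, in lung 2. The median size of CATG colonies relative to the rest was highest in lung 2, at a log2 of -0.30.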

How the results depend on the processing

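Of the summary results, 173 recomputed values stayed near the reported ones and 21 moved. Of the values for the single lines and pairs followed across settings, 614 kept direction and call, 46 lost a call, 29 gained one and 9 changed sign. Among all pairs called for number, ATCG against GATC turned at a minimum of 30 or 100 reads, where GATC had no colony. Without the replicate block for lung, 63 pairs differed in colony number, against 167. Leaving out 1 lung gave 141 to 167 pairs by number, 169 to 193 by reads, 186 to 198 by median and 179 to 202 by mean size, and 0 to 4 lines with larger recurring colonies. That last count was 5 at a minimum of 30 reads, 1 at 100, 0 by the exact test (whose smallest p, 0.03125, left no line able to pass after adjustment) and 1 without lungs 3 and 4. The part of read variance from number was 48.9% at a minimum of 30 reads, 56.7% at 100, 42.8% after thinning, 44.4% without GATC and 50.7% with lines of 5 or more colonies, and 36.1 to 38.9% without 1 lung. The mean correlation of size orders was 0.826 at a minimum of 100. With lines of 5 or more colonies, 360 of 465 pairs differed in number and 342 in reads. With lines of 20 or more in all lungs, 92 of 136 pairs differed in number, 106 in reads, 111 in median and 110 in mean size. Against the rest, median size changed sign at a minimum of 3 reads for AGAG (0.39), CCTT (0.78), CTGT (0.28) and GGAA (0.031), at 100 for AGAG (0.0793) and AGGT (-0.19), at the 90th percentile for ACCT (-0.38) and AGGT (-0.57), and without vehicle lung 2 for AGAG, whose difference ran from -0.35 to 0.0759 when 1 lung was left out. The cause was not tested. Depth limits small colonies: 10 reads are 0.638 to 1.55 RPM.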
